A study of Mus musculus with 9 samples.

Results

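Expression of 10 genes around the transcriptional coactivators YAP and TAZ was examined in capillaries and their neighbouring cells from the ossification front (OF), the zone below the growth plate where new bone is laid down. The genes were chosen by name and comprise the coactivators Yap1 and Wwtr1 (which encodes TAZ), the DNA-binding partners Tead1, Tead2, Tead3 and Tead4, and the target genes Ctgf (now also Ccn2), Cyr61 (now also Ccn1), Ankrd1 and Amotl2. All 10 were found among the 39179 genes listed for each library. Pieces were cut by laser from femurs of Tg(TIE2GFP)287Sato/J mice on a C57BL/6 background, in which the Tie2 promoter drives GFP in endothelial cells, at 4 weeks (juvenile, n = 5) and at 12 weeks (adult, n = 4). Mice of both ages carried the reporter, no treatment is named for either, and each piece held the capillary together with the cells around it. Age was the only factor that differed by design. The labels do not tie libraries to single mice, but the study's text speaks of separate mice within each age.

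YAP and TAZ lack a DNA-binding domain of their own and act on genes through TEAD factors. Kinases of the Hippo pathway phosphorylate both coactivators and hold them in the cytoplasm, whereas spread cell shape, stiff matrix and actin tension favour their presence in the nucleus. In bone, TAZ is known as a partner of RUNX2 in osteoblasts, and both coactivators take part in vessel sprouting. Counts of RNA do not measure where these proteins reside.

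TEAD factors recognise the letters CATTCC, or GGAATG on the other strand, and the promoters of the members are shown here for the place of these letters. RefSeq promoter windows of GRCm38.p6 were at hand for 7 of the 10 genes, and Ctgf, Tead1 and Tead4 had no entry. Within the 250 bases before a start site, 6 of these 7 genes held the motif on either strand in at least 1 window, and Tead2 did not. Among all 27025 genes with a window, 14.4% held it, and among the other YAP/TAZ target genes listed further below it was found in 3 of 12. A match is a string of letters and not evidence of binding. Capitals mark the motif in the sequences that follow, which read 5′ to 3′ on the strand of the gene. The windows of Cyr61 (chr3:145649986-145650235, minus strand) and of the upstream start of Wwtr1 (chr3:57575911-57576160, minus strand) contained no annotated exon and are given whole.
Cyr61: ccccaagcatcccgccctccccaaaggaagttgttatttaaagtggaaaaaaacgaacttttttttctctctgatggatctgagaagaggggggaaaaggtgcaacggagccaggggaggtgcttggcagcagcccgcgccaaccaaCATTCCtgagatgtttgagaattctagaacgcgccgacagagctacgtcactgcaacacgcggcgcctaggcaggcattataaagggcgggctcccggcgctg
Wwtr1: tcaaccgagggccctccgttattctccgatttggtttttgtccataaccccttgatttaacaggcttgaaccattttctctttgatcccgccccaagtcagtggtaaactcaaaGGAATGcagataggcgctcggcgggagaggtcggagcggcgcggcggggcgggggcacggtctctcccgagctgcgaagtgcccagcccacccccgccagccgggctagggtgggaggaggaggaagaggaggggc
The motif ended 97 bases before the start site of Cyr61 and 130 bases before that of Wwtr1.

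Windows of the other genes overlapped annotated exons, and 30 bases around a motif are shown for 4 of them. They lie at chr9:102717727-102717756 on the plus strand (Amotl2), chr19:36119950-36119979 on the minus strand (Ankrd1), chr9:8004720-8004749 on the minus strand (Yap1) and chr17:28350706-28350735 on the minus strand (Tead3).
Amotl2: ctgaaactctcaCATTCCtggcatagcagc
Ankrd1: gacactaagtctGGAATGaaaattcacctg
Yap1: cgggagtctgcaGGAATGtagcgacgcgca
Tead3: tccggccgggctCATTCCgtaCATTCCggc
A window of Tead3 held the motif in a close pair, and another held GGAATG at 28350982 to 28350987 on chromosome 17. Its remaining window held no motif. Ankrd1 had a further match at 36120049 to 36120054 on chromosome 19.

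Library totals ranged from 4856833 to 8077362 counts, at which 3 counts equal 0.371 to 0.618 CPM, the unit of counts relative to the TMM-scaled library size. Endothelial markers were present in every library: all 11 marker genes were detected, and their summed level was 706 to 1064 CPM in juvenile and 901 to 1092 CPM in adult mice. Other cells contributed as well. Summed osteoblast markers were at 171500 to 212900 CPM in juvenile and 62330 to 93160 CPM in adult libraries, erythroid markers at 419 to 2555 and 4716 to 37000 CPM, and neutrophil markers at 5.98 to 64.0 and 93.0 to 4324 CPM. These 3 sums did not overlap between the ages. Neither did those of macrophage markers (481.5 to 811.4 CPM in juvenile and 1011 to 1675 CPM in adult libraries) and megakaryocyte markers (2.82 to 14.5 and 62.0 to 3934 CPM). Sums of the other lists overlapped, those of osteoclast markers only slightly (8863 to 13850 and 13670 to 20470 CPM). Chondrocyte markers were at 362.7 to 985.1 and 596.3 to 4655 CPM, highest in adult replicate 2. The osteoblast sum consisted mainly of Col1a1 and Col1a2: of its 11 genes, 6 were higher and 1 lower in juvenile mice (edgeR). The lower gene was Bglap, which encodes osteocalcin, with a log2 fold change of -2.04 (edgeR adjusted p = 0.0151), and the other 4 (Spp1, Phex, Runx2 and Alpl) overlapped between the ages. All 8 erythroid and all 8 neutrophil genes were lower in juvenile mice. So were 1 of the 7 macrophage genes and 1 of the 2 megakaryocyte genes that could be tested (edgeR). Of all tested genes, 1.99% were higher and 1.89% lower in juvenile mice at an adjusted p under 0.05. Among lists whose sums overlapped, 2 of 7 osteoclast genes and 2 of 6 tested chondrocyte genes were lower. Of 6 adipogenic stroma genes, 1 was higher and 1 lower. Juvenile replicates 4 and 5 had more Y-linked than Xist counts, whereas the other libraries (3 juvenile and 4 adult) had the reverse. In bulk tissue pieces, fewer cells of a type and less RNA per cell cannot be told apart.

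Levels of the genes were compared with each other as CPM per kilobase of exon. In both ages, Ctgf was the most abundant member, with 141 ± 74.4 CPM per kb (SD, n = 5) at 4 weeks and 135 ± 44.3 CPM per kb (SD, n = 4) at 12 weeks, and it led in 9 of 9 libraries. Cyr61 followed with 42.5 ± 20.5 (SD, n = 5) and 46.01 ± 15.7 CPM per kb (SD, n = 4). Like Ctgf it encodes a secreted matricellular protein of the CCN family. The third was Wwtr1 at 21.2 ± 2.79 (SD, n = 5) and 14.5 ± 7.27 CPM per kb (SD, n = 4). Ctgf and Cyr61 did not overlap in either age, whereas the juvenile range of Cyr61 (20.8 to 68.1 CPM per kb) overlapped that of Wwtr1 (19.2 to 25.9 CPM per kb).

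Tead2, Amotl2 and Yap1 formed the middle of the order. In juvenile mice they stood at 10.4 ± 1.41, 7.56 ± 2.54 and 4.22 ± 1.27 CPM per kb (SD, n = 5), and in adult mice at 4.90 ± 1.30, 5.34 ± 1.46 and 4.71 ± 1.74 CPM per kb (SD, n = 4). The ranges of these 3 genes all overlapped in adult libraries. Tead1 and Tead3 were lower, at 2.67 ± 0.352 and 1.35 ± 0.452 CPM per kb in juvenile (SD, n = 5) and 1.39 ± 0.474 and 0.673 ± 0.540 CPM per kb in adult mice (SD, n = 4). Tead4 reached at most 1.25 CPM per kb, and Ankrd1 had 0 counts in all libraries.

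**Figure D1:**
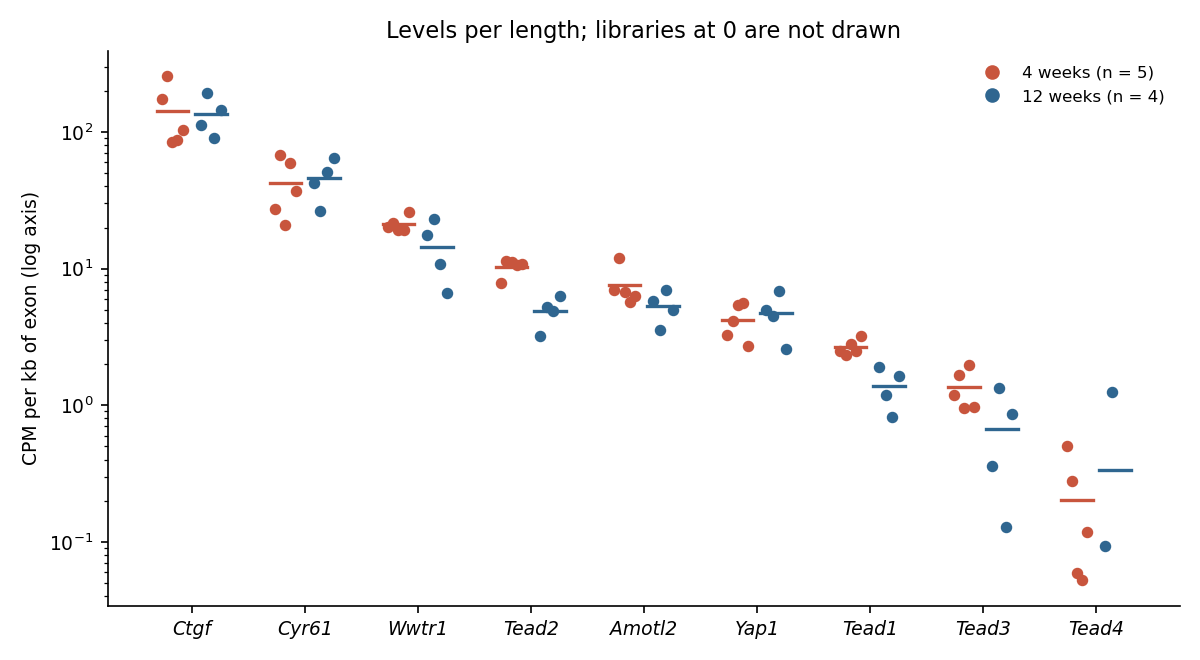
CPM per kilobase of exon on a log axis for each member with counts, with 1 point per library and the mean of each age as a bar; red points are 4-week-old and blue points 12-week-old mice, and libraries at 0 are not drawn. Ctgf lies highest in both ages, Wwtr1 lies above Yap1, and Tead2 is the most abundant of the TEAD genes.

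To find out whether age changed these genes, the quasi-likelihood test of edgeR was run over all 13418 genes that passed the filter on low counts. Of the 10 members, 8 passed this filter, and 0 of the 8 had an adjusted p under 0.05, where 3.88% of all tested genes did. At an unadjusted p under 0.05 there were 2 members, Tead1 and Tead2, against 17.3% of all tested genes. DESeq2 called the same 2 genes (9.61% of the genes to which it gave an adjusted p), and limma voom called 0. Log2 fold changes of juvenile over adult levels were above 0 for 6 members and below 0 for 2, with a median of 0.53 beside -0.007 over all tested genes.

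**Figure D2:**
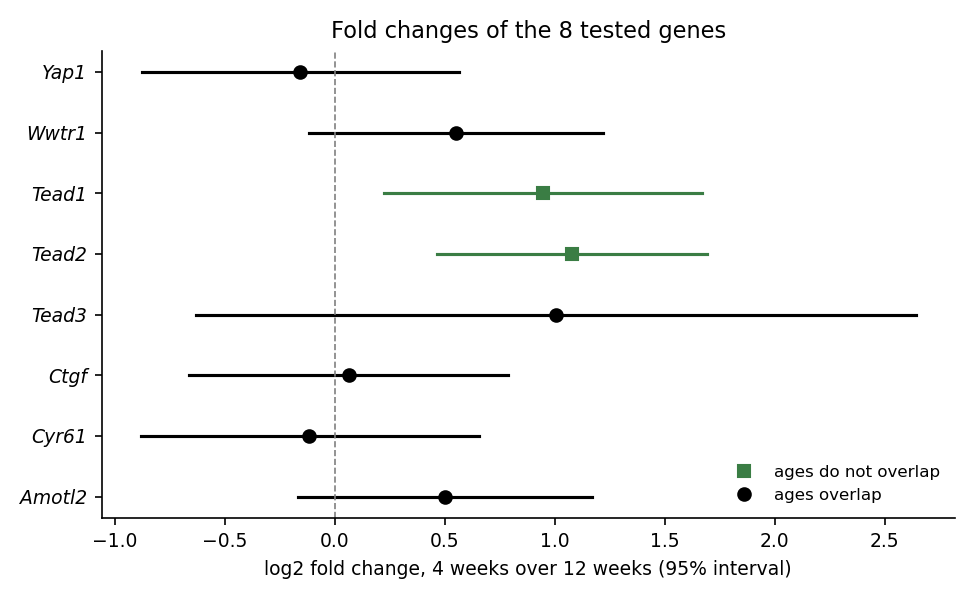
Log2 fold change of juvenile over adult levels from edgeR for the 8 tested members, with the 95% interval as a line; squares mark genes whose ages do not overlap. The intervals of Tead1 (0.22 to 1.67) and Tead2 (0.46 to 1.69) lie above 0, and those of the other 6 genes include 0.

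The coactivators came first. In juvenile replicates 1 to 5, Yap1 (chr9:7931999-8004596, minus strand, GRCm38 as for all genes) was counted at 30.5, 38.5, 49.8, 51.8 and 25.0 CPM, and in adult replicates 1 to 4 at 45.8, 41.6, 63.1 and 23.8 CPM. The ages overlapped over most of their range, and both the highest and the lowest library were adult. The log2 fold change was -0.16 ± 0.33 (SE, edgeR adjusted p = 0.885), with a 95% interval of -0.88 to 0.56. As a fold this interval spans 0.545 to 1.48.

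For Wwtr1 (chr3:57455649-57575910, minus strand), juvenile levels were close together, at 97.0, 102, 91.9, 92.0 and 124 CPM. Adult levels were 84.0, 110, 51.3 and 31.6 CPM. Adult replicates 1, 3 and 4 lay below every juvenile library, whereas adult replicate 2 lay among them. Between the ages the log2 fold change was 0.55 ± 0.31 (SE, edgeR adjusted p = 0.4, 95% interval -0.12 to 1.22). It was 0.29 without adult replicate 4 and 0.84 without adult replicate 2. Adult replicate 4, with the least Wwtr1, also had the lowest sum of osteoblast markers (62330 CPM) and the highest sum of erythroid markers (37000 CPM), and the part of these cells in the result was not tested.

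Per kilobase of all exons, Wwtr1 exceeded Yap1 in 9 of 9 libraries. The ratio of Yap1 to Wwtr1 was 0.206 ± 0.0791 (SD, n = 5) at 4 weeks and 0.375 ± 0.19 (SD, n = 4) at 12 weeks, and the ages overlapped, from 0.104 to 0.291 and from 0.195 to 0.634. The ratio depends on the length assigned to Yap1: with the longest transcript in place of all exons it was 0.355 and 0.646. By that length the order turned in adult replicate 3. There Yap1 had 63.1 and Wwtr1 51.3 CPM, on longest transcripts of 5282 and 4697 bases.

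Among the DNA-binding partners, Tead2 (chr7:45215753-45233644, plus strand) had the smallest p of the tested members. Its juvenile levels were 37.7, 54.0, 53.4, 50.7 and 52.1 CPM, and its adult levels were 15.3, 25.2, 23.3 and 30.2 CPM. Every juvenile library lay above every adult library. The level was 49.6 ± 6.77 CPM (SD, n = 5) against 23.5 ± 6.21 CPM (SD, n = 4), a log2 fold change of 1.08 ± 0.28 (SE, edgeR adjusted p = 0.0542, 95% interval 0.46 to 1.69). With DESeq2 the log2 fold change was 1.06 ± 0.27 (SE, adjusted p = 0.00209), and after thinning all libraries to the smallest total the adjusted p from edgeR was 0.0477, where 4.29% of the tested genes were called. Over all alternatives with no library left out singly, the adjusted p of Tead2 ran from 0.00209 to 0.269.

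Tead1 (chr7:112679318-112906807, plus strand) was counted at 33.9, 31.5, 38.1, 34.0 and 43.7 CPM in juvenile and at 25.7, 16.2, 11.1 and 22.2 CPM in adult mice. Here too the ages did not overlap, and the adult libraries differed more among themselves. Its log2 fold change was 0.95 ± 0.34 (SE, edgeR adjusted p = 0.147, 95% interval 0.22 to 1.67), and DESeq2 gave 0.92 ± 0.31 (SE, adjusted p = 0.0399). Over the same alternatives its adjusted p ran from 0.0399 to 0.476. Thus 2 of the 8 tested members, both TEAD genes, were higher in juvenile mice without overlap, as were 5.07% of all tested genes, and 0 were higher in adult mice without overlap, as were 4.08% of all tested genes (9.15% in either direction). The summed osteoblast markers, with 6 of 11 genes called higher (1.99% of all tested genes) and 1 lower (1.89%), separated the ages in the same direction. Erythroid, neutrophil, macrophage and megakaryocyte sums separated them in the opposite direction, and the part of these cells in the TEAD values was not tested.

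Tead3 (chr17:28331671-28350817, minus strand) was counted at 7.98, 11.1, 6.38, 13.3 and 6.57 CPM in juvenile and at 2.43, 9.02, 0.866 and 5.76 CPM in adult mice. The ages overlapped through adult replicate 2. These levels rest on 7 to 77 counts per library, and the log2 fold change of 1.01 had a standard error of 0.76 (adjusted p = 0.574, edgeR). It was 0.65 without adult replicate 3 and 1.56 without adult replicate 2. Tead4 (chr6:128224288-128300823, minus strand) was nearly absent, with 10, 7, 1, 1 and 2 counts in juvenile and 0, 2, 0 and 36 counts in adult libraries, and did not pass the filter. Its highest level, 4.51 CPM, was that of adult replicate 4, the library with the highest sums of erythroid (37000 CPM) and megakaryocyte markers (3934 CPM), whose part in it was not tested.

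Summed per length over the 4 genes, TEAD expression was 14.6 ± 1.42 CPM per kb (SD, n = 5) at 4 weeks and 7.30 ± 2.13 CPM per kb (SD, n = 4) at 12 weeks. Juvenile libraries spanned 12.1 to 15.5 and adult libraries 5.44 to 10.0 CPM per kb. Tead2 was the largest part in 9 of 9 libraries, with 65.3% to 74.5% of the sum in juvenile and 58.6% to 83.6% in adult mice. Tead1 made up 18.4% ± 2.66 (SD, n = 5) and 20.1% ± 9.84 (SD, n = 4). The makeup of the TEAD family thus overlapped between the ages while its sum did not.

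**Figure D3:**
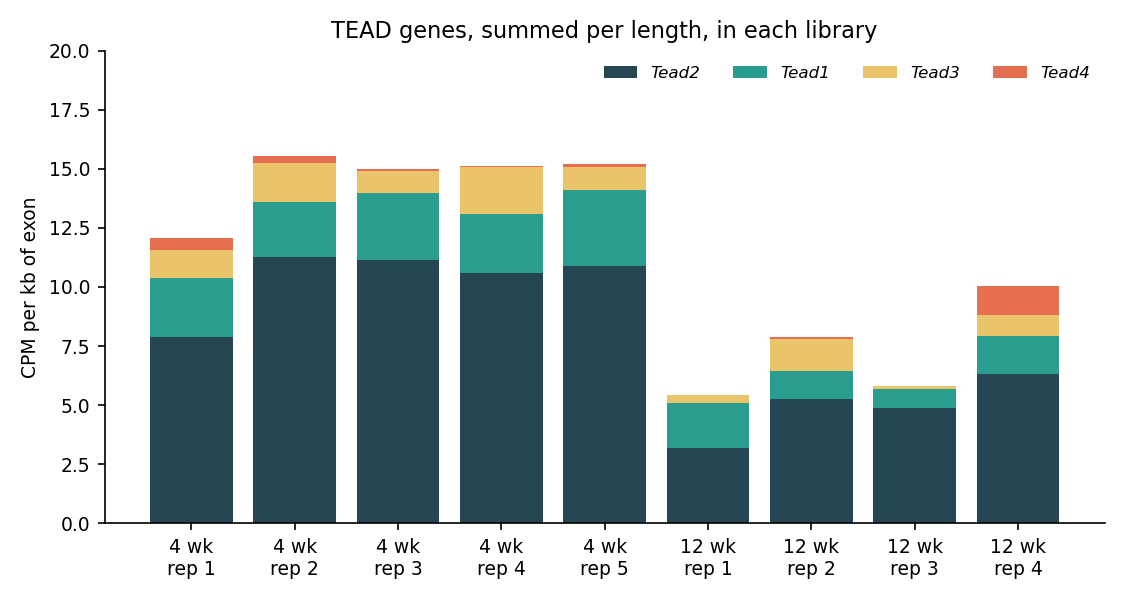
CPM per kilobase of exon of Tead2, Tead1, Tead3 and Tead4 stacked in 1 bar per library, with the 5 juvenile libraries on the left and the 4 adult libraries on the right. The juvenile bars reach 12.1 to 15.5 CPM per kb and the adult bars 5.44 to 10.0 CPM per kb, and Tead2 is the largest part of each.

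The target genes follow. Ctgf, which encodes connective tissue growth factor and is induced by stretch and by matrix stiffness, was counted at 499, 736, 241, 249 and 298 CPM in juvenile and at 325, 551, 259 and 416 CPM in adult mice. The adult range lay inside the juvenile range. The log2 fold change was 0.06 ± 0.34 (SE, edgeR adjusted p = 0.962), with a 95% interval of -0.66 to 0.79, or folds of 0.632 to 1.73.

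Cyr61 (chr3:145646976-145649981, minus strand), a ligand of integrins with angiogenic activity, was counted at 54.7, 137, 41.9, 120 and 74.4 CPM in juvenile and at 86.0, 53.6, 103 and 129 CPM in adult mice. Again the adult libraries fell inside the juvenile range. Between the ages the log2 fold change was -0.11 ± 0.36 (SE, edgeR adjusted p = 0.928, 95% interval -0.88 to 0.65). Both CCN genes varied 3.05-fold and 3.28-fold within the juvenile group, where Wwtr1 varied 1.35-fold and Tead1 1.38-fold.

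Ctgf and Cyr61 did not rise and fall together in each library. Juvenile replicate 2 was highest for both genes, whereas adult replicate 2 had the most Ctgf and the least Cyr61 of its age. Per length, Ctgf exceeded Cyr61 by 3.71 ± 1.83 times (SD, n = 5) at 4 weeks and 3.49 ± 2.54 times (SD, n = 4) at 12 weeks, and the ratio of 7.25 in adult replicate 2 stood apart from 1.78 to 2.66 in the other adult libraries. Without this library the adult mean was 2.24. Adult replicate 2 also had the highest sum of chondrocyte markers (4655 CPM, against 362.7 to 1031 CPM in the others). Its sum of neutrophil markers was 93.0 CPM, against 3482 to 4324 CPM in the other adult libraries. The part of these cells in the ratio was not tested.

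The exons of Ctgf on chromosome 10 (24595442 to 24598683, plus strand, GRCm38) overlap those of the antisense gene Gm15270 over 665 bases, or 23.2% of the exons of Ctgf. Gm15270 had 137 to 974 counts per library and a log2 fold change of 0.04 ± 0.46 (SE, edgeR adjusted p = 0.984). The strand setting of the counting is not given in the sources used here, so reads that fall in this overlap cannot be assigned to one gene or the other. Of the stretches of 75 bases in Ctgf transcripts, 14.6% were shared with Gm15270. With the counts of both genes summed, the log2 fold change of Ctgf was 0.06 ± 0.35 (SE, edgeR adjusted p = 0.965), a sum chosen after seeing the data. Of the other members, Yap1 shared 0.448% of its stretches of 75 bases with the antisense gene Gm20416, and the remaining 8 shared 0 such stretches with any annotated transcript of another gene, TEAD paralogs included.

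Amotl2 (chr9:102716672-102733418, plus strand) encodes a junctional scaffold of the motin family that binds YAP. It was counted at 43.9, 75.6, 42.4, 36.0 and 39.8 CPM in juvenile and at 36.6, 22.4, 44.2 and 31.1 CPM in adult mice. Juvenile replicate 2 was high, and the other juvenile libraries lay within 36.0 to 43.9 CPM. Its log2 fold change was 0.50 ± 0.31 (SE, edgeR adjusted p = 0.461, 95% interval -0.17 to 1.17). It was 0.27 without juvenile replicate 2 and 0.33 without adult replicate 2.

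Ankrd1 (chr19:36111961-36120099, minus strand), which encodes a nuclear and sarcomeric ankyrin-repeat protein best known from heart and skeletal muscle, was not detected in any of the 9 libraries. A count of 0 allows up to 0.371 to 0.618 CPM, depending on the library, and this limit covers counting error only. Skeletal muscle markers were also low, with a summed level of 0.544 to 4.47 CPM in juvenile and 3.59 to 19.9 CPM in adult libraries. Of the 6 markers, Myh4 was at 0 in every library, whereas Tnni2 reached 19.9 CPM in an adult library.

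**Figure D4:**
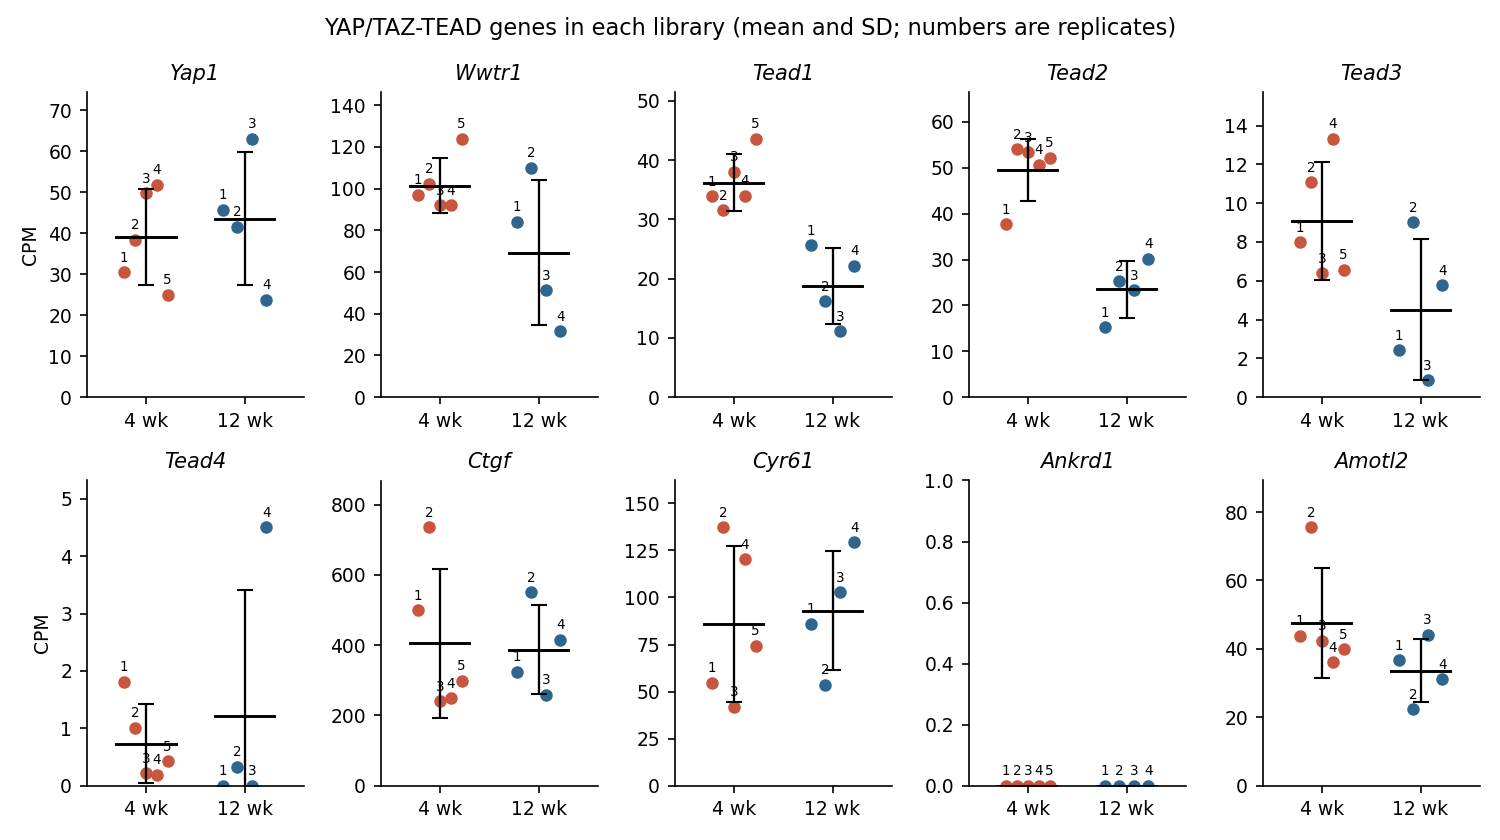
CPM of the 10 genes in each library at 4 and 12 weeks, with a panel per gene, an axis from 0, the replicate number above each point, the mean as a horizontal line and the SD as a bar, cut at 0 for Tead4. Tead1 and Tead2 separate the ages, the adult points of Ctgf and Cyr61 lie inside the juvenile range, and Ankrd1 is at 0 throughout.

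Spread within an age was larger in adult mice for 5 of the 8 tested members on the log2 scale, as it was for 68.8% of all tested genes. For Wwtr1 the SD was 0.18 (n = 5) in juvenile and 0.79 (n = 4) in adult mice. Ctgf went the other way, with 0.70 (n = 5) and 0.47 (n = 4).

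Genes with the most similar course over the 9 libraries were sought by the root mean square difference of centred log2 CPM, and serve as a description. For Yap1 these were Herpud1 (0.18), Mrpl17 (0.20) and Zfp706 (0.22), where the median over all tested genes was 0.82. For Wwtr1 they were Dapk3 (0.15), Fgd1 (0.17) and Unc5b (0.20), against a median of 0.89. Ctgf was closest to Cox4i2 (0.21), S1pr3 (0.24) and its antisense neighbour Gm15270 (0.27), against a median of 0.87. Exons of Ctgf and Gm15270 overlap, and the part of reads from this overlap in their likeness was not tested. Cyr61 was closest to Atxn7l1 (0.27), Hgs (0.30) and Mpdu1 (0.31), against a median of 0.90.

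Further genes of the pathway were read from the same test. The kinases and adaptors of the Hippo core, which restrain YAP and TAZ, comprised 11 genes, all tested. Of these 1 was higher in juvenile mice (1.99% of all tested genes), and 0 were higher in adult mice (1.89% of all tested genes). The called gene was Map4k4, a kinase that acts on LATS in parallel to the MST kinases. It was counted at 158, 149, 176, 191 and 184 CPM in juvenile and at 81.8, 140, 86.9 and 94.1 CPM in adult mice, so the ages did not overlap. The log2 fold change was 0.77 ± 0.20 (SE, edgeR adjusted p = 0.0475). Over the other tools, scalings, filters, the replicate block and the subset with more Xist, the adjusted p ran from 0.00411 to 0.271, and leaving out any library except adult replicate 2 raised it above 0.05, to between 0.0654 and 0.12.

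Of the 14 upstream and junctional regulators, 0 had an adjusted p under 0.05 in edgeR, where 3.88% of all tested genes did. At an unadjusted p under 0.05 there were 5 (17.3% of all tested genes), and the median log2 fold change was 0.33. DESeq2 called 1 of them (9.61% of the genes with a DESeq2 adjusted p), Nf2, the merlin tumour suppressor, for which edgeR gave 0.96 ± 0.33 on the log2 scale (SE, adjusted p = 0.138). From the VGLL family, cofactors that compete with YAP for TEAD, Vgll4 was the only one of 4 genes that could be tested, and DESeq2 called it. It stood at 65.1 ± 12.2 CPM (SD, n = 5) at 4 weeks and 33.7 ± 9.46 CPM (SD, n = 4) at 12 weeks, without overlap and with a log2 fold change of 0.95 ± 0.27 (SE, edgeR adjusted p = 0.0765). Vgll1 and Vgll2 had 0 counts in all libraries. Nf2 and Vgll4 were named after their values were seen.

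Beyond the members, 18 genes commonly used as YAP/TAZ targets were listed, and 16 of them were tested. None passed in edgeR (0 of 16, against 3.88% of all tested genes), 5 had an unadjusted p under 0.05 (17.3% of all tested genes), and the median log2 fold change was 0.03. DESeq2 called 2 of them (9.61% of the genes with a DESeq2 adjusted p), in opposite directions: Nt5e, an ecto-nucleotidase, had a log2 fold change of 2.72 ± 0.79 (SE, edgeR adjusted p = 0.0783), and Nuak2, a kinase, one of -2.14 ± 0.70 (SE, edgeR adjusted p = 0.114). Both genes were named after their values were seen, and both were low at 1 of the ages. Nt5e was at 9.54 to 48.0 CPM in juvenile and 0.501 to 9.40 CPM in adult libraries. For Nuak2 these ranges were 0.636 to 4.47 and 9.40 to 16.0 CPM. The other CCN genes, Nov, Wisp1 and Wisp2, gave 2 tested genes, of which 0 passed in edgeR, and 0 had an unadjusted p under 0.05.

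SRF, with its actin-regulated cofactors of the MRTF family, is the other main route from actin tension to transcription. Of 15 genes of this route, 14 were tested, 0 were higher (1.99% of all tested genes) and 2 were lower in juvenile mice (1.89% of all tested genes). Fhl2, a LIM-domain cofactor, was at 38.4, 49.4, 38.5, 17.8 and 25.4 CPM in juvenile and at 113, 77.5, 126 and 125 CPM in adult mice. All adult libraries lay above all juvenile ones, and the log2 fold change was -1.70 ± 0.29 (SE, edgeR adjusted p = 0.00854). The call was kept with each library left out in turn, with adjusted p-values of 0.00565 to 0.0282. Restricted to libraries in which Xist exceeded Y-linked genes, Fhl2 had -1.39 (adjusted p = 0.0626, edgeR), and with the replicate block -1.67 (adjusted p = 0.0895).

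Myl9, the regulatory light chain of smooth muscle and nonmuscle myosin, was at 27.9, 44.7, 44.3, 32.5 and 21.6 CPM in juvenile and at 166, 54.8, 46.8 and 164 CPM in adult mice. The ages were separate but close, since adult replicate 3 lay just above juvenile replicate 2. Between the ages the log2 fold change was -1.66 ± 0.40 (SE, edgeR adjusted p = 0.0374), and it did not pass under limma voom (adjusted p = 0.0719), with the replicate block (adjusted p = 0.269), in the subset with more Xist (-1.47, adjusted p = 0.251), without any 1 of the juvenile libraries (adjusted p = 0.0604 to 0.1), or without adult replicate 1 (-1.39, adjusted p = 0.0819) or adult replicate 4 (-1.40, adjusted p = 0.0929). Adult replicates 1 and 4, with the most Myl9, also had the highest sums of pericyte and smooth muscle markers among all libraries (708 and 641 CPM, against 371 to 541 CPM in the others). Single markers of this list differed between them: Acta2 and Tagln were at 57.1 and 89.8 CPM in adult replicate 1. In adult replicate 4 these genes were at 0.125 and 5.01 CPM. The part of pericytes and smooth muscle cells in the Myl9 values was not tested.

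**Figure D5:**
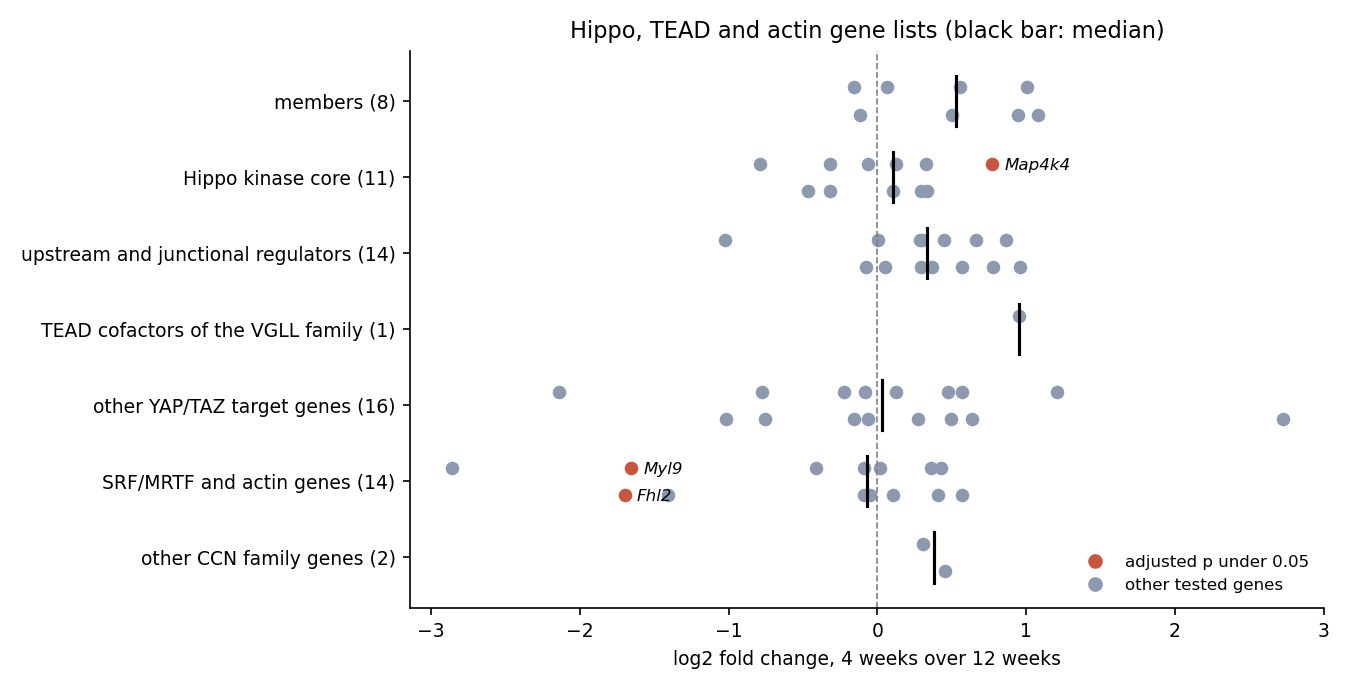
Log2 fold change of juvenile over adult levels for the tested members and the tested genes of 6 lists, with 1 point per gene, the number of genes in brackets and the median as a black bar. Red points passed an adjusted p of 0.05 in edgeR and are Map4k4, Myl9 and Fhl2, while all 8 tested members are grey.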

How the data were processed

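RNA from laser-microdissected pieces was amplified with the SMART-Seq v4 kit from poly-A ends and sequenced as paired-end reads. The authors mapped the reads to mm10 (GRCm38) with TopHat2 and Bowtie2, and deposited raw counts per Ensembl gene without normalization. The submitters' processing notes also name featureCounts, but its strand setting and the annotation release are not given in the sources used here.

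Symbols, positions and exon lengths came from GENCODE vM21 (GRCm38), which holds 96% of the gene identifiers. Ctgf and Cyr61 were matched as Ccn2 and Ccn1 through RefSeq synonyms. Genes were kept with filterByExpr, scaled with TMM and tested in edgeR 4.0.16 (quasi-likelihood, R 4.3.3) over all 9 libraries without covariates, with Benjamini-Hochberg adjustment over all genes tested and a threshold of 0.05. The confidence level of intervals was 95%. CPM used TMM-scaled library sizes, and log2 CPM a prior count of 2. DESeq2 1.42.0, the tool of the study, and limma 3.58.1 voom were alternatives, beside other scalings, filters, thinned counts, a replicate block, left-out genes and left-out libraries. The fits were also run on simulated counts with the same dispersion per gene at both ages. That setting leaves out the larger adult spread, and no result here rests on it. Correlations of deviations between same-numbered libraries were -0.032 to 0.03, yet 5 of 8 libraries came closest to the one of their own number. This check does not settle whether replicate numbers pair the libraries. No library was a copy of another in 36 pairs.

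The members and lists were chosen with earlier results of these data known. The rule for named genes took all members, list genes with an adjusted p under 0.05 (at most 3 in each direction per list), and the 3 genes nearest to Yap1, Wwtr1, Ctgf and Cyr61. Nf2, Vgll4, Nt5e and Nuak2 fall outside this rule and were named after their values were seen, as were single genes of the marker and overlap checks. Promoters came from RefSeq (GRCm38.p6). Figures were drawn with matplotlib 3.10.9.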

Additional observations from a re-analysis of the deposited data

Results flagged for a closer look

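Each member, ratio and sum was screened per age for an extreme library with Dixon's criterion (distance to the closest library divided by the spread of the group), which marked 5 of 32 groups where chance marks about 1.6. Tead2 was at 37.7 CPM in juvenile replicate 1 against 50.7 to 54.0 CPM elsewhere at that age (gap over range 0.796). The TEAD sum, of which Tead2 is the main part, was 12.1 CPM per kb in the same library against 15.0 to 15.5 (0.837). Tead4 was at 4.51 CPM in adult replicate 4 against 0 to 0.334 CPM (0.926). Amotl2 was at 75.6 CPM in juvenile replicate 2 against 36.0 to 43.9 CPM (0.802). The ratio of Ctgf to Cyr61 was 7.25 in adult replicate 2 against 1.78 to 2.66 (0.838).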

How the results depend on the processing

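In place of 520 genes called, DESeq2 called 1492, the fit with the replicate block 89 and the subset in which Xist exceeded Y-linked genes 73; leaving out 1 library gave 262 to 651, with 332, 293, 275 and 262 without juvenile replicates 2, 3, 4 and 5. Of the members, DESeq2 called 2 (9.61% of the genes to which it gave an adjusted p) and the thinned counts 1 (4.29% of the tested genes). All other settings, the replicate block and each left-out library included, called 0 (edgeR or limma). Of the pathway lists, 3 of 56 tested genes were called with all libraries (3.88% of all tested genes). With DESeq2 there were 7 (9.61% of the genes to which it gave an adjusted p). The block called 0 and the libraries with more Xist 0. With a library left out there were 1 to 4 (1 each without any 1 of the juvenile libraries or adult replicate 1). Direction turned for members near 0. Yap1 had a log2 fold change of 0.009 with the replicate block and -0.379 to 0.059 with a library left out (above 0 without adult replicate 3). Ctgf had -0.18 with limma voom and -0.27 to 0.26 with a library left out (below 0 without juvenile replicate 1 or 2 or adult replicate 1 or 3), and Cyr61 had -0.352 to 0.066 (above 0 without juvenile replicate 1 or 3 or adult replicate 4). Tead1 kept its direction at 0.74 to 1.12 and Tead2 at 0.90 to 1.21 with a library left out, with adjusted p-values from 0.0976 to 0.3 and from 0.0583 to 0.127 (edgeR). By the longest transcript, the ratio of Yap1 to Wwtr1 was 0.355 in juvenile and 0.646 in adult mice, and Yap1 exceeded Wwtr1 in adult replicate 3. Same-numbered libraries came closest to each other in 5 of 8 cases. Myl9 lost its call without any 1 of the juvenile libraries or adult replicate 1 or 4. The summing of Ctgf with Gm15270 was chosen after seeing the data, and causes were not tested. Few counts limit Tead3 and Tead4.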
